A study of Mus musculus with 6 samples.

Results

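The rows described here carry the name of a microRNA from a mammal other than mouse or cow, although the cells were of mouse. They were chosen by name alone, as every row of the deposited table whose name began with neither the mouse prefix (mmu-), the cow prefix (bta-) nor the prefix for predicted sequences (PC-), and they numbered 124 of 1560 rows. The rows held 113 distinct sequences of 18 to 26 bases under 19 species prefixes. The prefix of human (hsa) was on 43 rows, that of opossum (mdo) on 12, of the black flying fox (pal) on 10, of guinea pig (cpo) on 9, of Chinese hamster (cgr) on 8 and of goat (chi) on 7. A substitution tag in the name, a digit followed by ss, marks bases that differ from the named microRNA, and 53 of the rows had one and 71 had none. Letters L and R in a name give bases added or missing at the 5′ and 3′ ends.

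The study sequenced small RNA in 6 libraries from the pigmented mouse melanocyte line melan-alpha, which grows without limit in culture. In the 3 libraries of the group Mitf_OE, called MITF overexpression here, melan-alpha cells had received the mouse MITF gene by lentivirus, and the 3 libraries of the group Mitf_control have no such infection in their labels, which name no empty vector. Both groups shared RPMI medium and fetal bovine serum, are placed under mouse skin and have extracellular vesicle as their source, while the protocol speaks of harvested and rinsed cells. The labels do not say whether replicates were separate cultures, so a p-value here speaks for the spread of these samples alone and that spread may be technical, and they name neither the promoter of the virus nor the number of clones.

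A microRNA is a short RNA that guides silencing of messenger RNAs through its seed, bases 2 to 8, and many microRNAs are the same letter for letter across mammals. Annotation programs that search the microRNAs of many species can give a read a foreign name when no mouse entry takes it first. Fragments of longer structural RNAs, such as transfer RNAs, to whose 3′ ends cells add the letters CCA, small nuclear RNAs and ribosomal RNAs, are of similar length and are known in vesicle samples, and the human entry miR-1246 has been described as a fragment of the U2 small nuclear RNA. The factor MITF switches on the genes of pigment cells, among them those that make melanin.

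The miR-1246 rows are shown first because they held the called row with the smallest adjusted p. Their sequences follow, with a stretch of the mouse U2 gene Rnu2-10 from GENCODE M21, bases 92 to 115 of its 191-base transcript. Capitals mark the unbroken run that a row shares with that stretch.
hsa-miR-1246_L-2R+1: TGGATTTTTGGAgcaggg
hsa-miR-1246_L-1R+1: ATGGATTTTTGGAgcaggg
hsa-miR-1246_1ss3TC: aacGGATTTTTGGAgcagg
hsa-miR-1246: AATGGATTTTTGGAgcagg
Rnu2-10: taAATGGATTTTTGGAagtaggag
The run was 12 of 18, 13 of 19, 11 of 19 and 14 of 19 bases in this order, and none of the 4 rows matched the Rnu2-10 transcript over its whole length. The fewest edits that turn a row into a stretch of Rnu2-10 were 3, 3, 3 and 2. The full-length row hsa-miR-1246 also matched bases 95 to 113 of the 186-base transcript of Gm22970, which GENCODE lists as a mouse small nuclear RNA, with 1 mismatch.

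The next rows end in CCA, shown in capitals, and are printed because they include the miR-7977 row, the called row with a substitution tag.
hsa-miR-7977_1ss6AG: ttcccggccaacgcaCCA
pal-miR-9993b-3p: atctcgctggggcctCCA
pal-miR-9993a-3p: atctcggtgggacctCCA
cgr-miR-1260: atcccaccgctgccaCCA
hsa-miR-4454_L-2: atccgagtcacggcaCCA
These were the 5 CCA-ended rows with reads in all 6 libraries. The miR-7977 row also matched transcripts of the mouse lincRNA genes Gm12505 (chromosome 4) and Gm29371 (chromosome 1) letter for letter, CCA included, and the other 4 matched no GENCODE transcript over their whole length. A CCA end was found on 10 of the 124 rows, 8.06%, against 0.59% of mouse-named, 2.15% of cow-named and 1.19% of predicted rows.

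Another 4 rows matched the mouse mitochondrial large ribosomal RNA, mt-Rnr2, letter for letter, at neighbouring places. They are shown because their names belong to human and hamster microRNAs, and capitals mark the bases shared by rows of one microRNA name.
hsa-mir-4485-p5_1ss18CT: gttTAACGGCCGCGGTATCCT
hsa-mir-4485-p3_1ss15CT: TAACGGCCGCGGTATCCT
hsa-mir-1973-p3: gtatcctgacCGTGCAAAGGTAGCA
cgr-mir-1973-p3_1ss19AT: CGTGCAAAGGTAGCAtaatc
On GRCm38, which is not the authors' build, they lie on the plus strand of the mitochondrial chromosome, from 1997 to 2017, 2000 to 2017, 2011 to 2035 and 2021 to 2040, inside mt-Rnr2 at 1094 to 2675.

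The last set is of 3 rows close to a mouse microRNA and of the called row cpo-miR-6529-5p, which had none of the features used to group rows by sequence. The seed is in capitals, and each row is followed by the mature mouse sequence of RefSeq (GRCm38.p6) where that table holds one, written with U.
rno-miR-224-5p: cAAGTCACtagtggttccgttt
mmu-miR-224-5p: uAAGUCACuagugguuccguu
cpo-miR-412-5p_R-3: tGGTCGACcagttggaaagt
mmu-miR-412-5p: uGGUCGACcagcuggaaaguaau
pal-miR-544-5p: tCTTGTTAaaaggcagattct
mmu-miR-544-5p: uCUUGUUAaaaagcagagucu
cpo-miR-6529-5p: gAGAGATCagaggcgcagagt
Counted from 1 at the 5′ end, with the mouse base first, the miR-224 row differed by U1C, the miR-412 row by C12U, and the miR-544 row by A12G and G18U. All of these lie outside the seed, so these 3 rows had the seed of their mouse namesake. None of the 506 mouse-named rows analysed here was named for miR-224-5p, miR-412-5p or miR-544-5p.

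By sequence, the 124 rows fell into 8 groups. After the other named groups were set, 49 rows were within 2 mismatches of a mature mouse microRNA or of a mouse microRNA gene transcript. Over all 124 rows, 39 were within 2 mismatches of a mature one. There were 4 rows of miR-1246. Rows with a CCA end numbered 10, and 17 rows had at least 80% G and C. A further 4 rows matched mt-Rnr2, 2 matched the 7SL RNA of the signal recognition particle, 2 matched tRNA genes, and 36 had none of these features. None of the 124 equalled a mature mouse microRNA of the RefSeq table over its whole length. An unbroken exact match to any GENCODE mouse transcript was found for 15.3% of the rows. It was found for 85.6% of mouse-named, 2.15% of cow-named and 1.79% of predicted rows. That match was found for 13 of the 53 rows with a substitution tag and for 6 of the 71 without one. At least 80% G and C was found in 13.7% of the rows, against 1.19% of mouse-named, 1.08% of cow-named and 0.478% of predicted rows. Tags were on 42.7% of the rows, against 30.1% of cow-named and 14.03% of mouse-named rows. Reading the position in a tag as a place along the row put 26.3% of the tagged bases within its last 3, against 37.9% and 37.0%. The mouse-named share includes 2 bases so placed beyond the row's end, so the positions may not count along the row.

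The libraries held 342941, 382350 and 475977 tabulated reads (controls) and 448969, 279142 and 306062 (MITF overexpression). The 124 rows took between 0.298% of them in control replicate 1 (Wilson 95% interval 0.281% to 0.317%) and 0.716% in MITF overexpression replicate 2 (0.686% to 0.748%). A count of 0 in a library allows up to 3 reads, or a CPM of 6.73 to 10.1 by library (CPM are reads scaled to a common library total), and intervals and limits cover counting error only. Markers of other cell types moved with the groups and with single libraries. The liver microRNA miR-122-5p was at 8784 to 16267 CPM in controls and at 22563, 29904 and, in MITF overexpression replicate 1, 102218 CPM with MITF overexpression. The 7 detected blood markers of 8 summed to 1631, 2544 and 2384 CPM in controls and to 8620, 5538 and 4734 CPM with MITF overexpression. Both lists were thus higher in each MITF overexpression library than in any control, and highest in replicate 1. Both endothelial markers summed to 9015 CPM in that library against 1812 to 2905 CPM in the other 5. The 3 of 3 detected muscle markers summed to 1438 CPM in control replicate 3, against 10.2 to 61.7 CPM in the other 5 libraries. The detected neural marker, miR-9-5p, 1 of 2 listed, was lower in each MITF overexpression library, at 438 to 610 CPM against 763 to 1105 CPM. The 4 of 4 keratinocyte markers summed to 133, 127 and 11.2 CPM in controls and to 172, 192 and 43.5 CPM with MITF overexpression, with overlap. The summed level of 4 of 4 melanocyte markers of the miR-211 and miR-204 precursors was 1962 to 2751 CPM in controls and 4532 to 5903 CPM with MITF overexpression. The part of these markers in the results below was not tested.

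Of the 28 rows with enough reads to be tested, 5 rose with MITF overexpression and 0 fell, at a threshold of 0.05 on p-values from the quasi-likelihood test of edgeR, adjusted by Benjamini-Hochberg over all 441 tested rows. Over all tested rows, 15.2% were called, 9.98% higher and 5.22% lower. By DESeq2, 2 of these rows were higher and 0 lower, against 7.08% higher and 4.31% lower over all rows it tested. An unadjusted p under 0.05 by edgeR was found for 11 of the 28 and for 152 of all 441 tested rows. All 3 libraries of one group lay above all of the other in 11 of the 28 rows, each time with MITF overexpression higher, where 42.4% of all tested rows did so in either direction and 25.2% in that one. The median log2 fold change was 0.70 over the 28 rows and 0.08 over all tested rows. It was -0.07 for mouse-named, 1.06 for cow-named and 0.69 for predicted rows. Without MITF overexpression replicate 1, 3 of these rows were called higher and 1 lower by edgeR, and their median log2 fold change was 0.54. Without control replicate 3 the filter kept 36, of which 4 were called higher and 0 lower by edgeR, with 49 calls over all rows, 41 of them higher. With all 6 libraries, the 28 rows passed the filter on their reads and the other 96 did not. Each of those 96 had 2.5 to 94 reads over the 6 libraries.

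**Figure D1:**
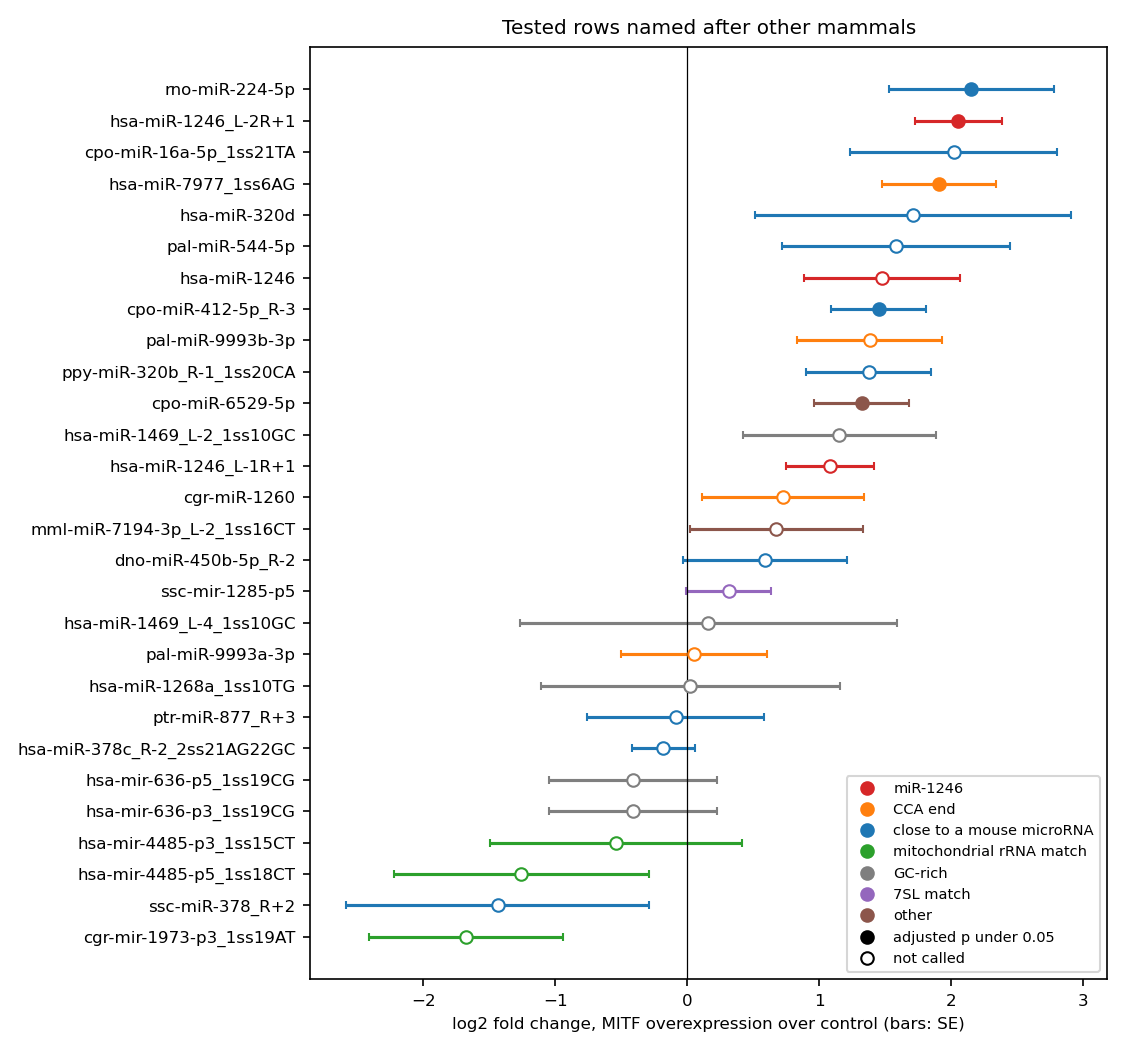
Log2 fold change (x axis, MITF overexpression over control, bars are standard errors) of the 28 tested rows named after other mammals, coloured by sequence group, with filled points for an adjusted p under 0.05. The 5 filled points lie between 1.32 and 2.15, and the 8 points below 0 are all open.

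Of the 3 tested miR-1246 rows 1 rose, and the sum of all 4 was higher in each MITF overexpression library than in any control. The row hsa-miR-1246_L-2R+1 had 21, 46.5 and 47 reads among controls and 175, 147.5 and 114 with MITF overexpression, and the groups did not overlap. Its level was 98.0 ± 26.9 CPM in controls and 408 ± 83.5 CPM with MITF overexpression (SD, n = 3), or 2.05 ± 0.33 (SE) as log2 fold change, and the adjusted p by edgeR was 0.0189. It passed the threshold in 5 of 6 fits that each left out 1 library. Without MITF overexpression replicate 3 its adjusted p was 0.0690 by edgeR, and without MITF overexpression replicate 1 its log2 fold change was 2.05.

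The row that keeps 1 more base at the 5′ end, hsa-miR-1246_L-1R+1, had 31, 46.5 and 63 reads against 90, 99.5 and 79, again without overlap, but its log2 fold change of 1.08 ± 0.33 (SE) missed the threshold at an adjusted p of 0.0534 by edgeR. It passed with total-count scaling, at an adjusted p by edgeR of 0.0381, and with a minimum of 10 reads in 3 libraries, at 0.0490. The full-length row hsa-miR-1246 had 9, 13 and 26.5 reads against 32, 61 and 23. In CPM its lowest value with MITF overexpression, 66.8, was above its highest control value, 59.4, and its adjusted p was 0.107 by edgeR. The row with a tag, hsa-miR-1246_1ss3TC, had 0, 0 and 9 reads against 7, 7 and 16 and was not tested. Summed, the 4 rows stood at 198, 274 and 326 CPM in controls and at 690, 1061 and 673 CPM with MITF overexpression, which did not overlap. Some counts of these rows were fractional, their sequences are nested, and the origin of the fractions is not stated in the labels or headers. The share of raw reads that the authors put in the class of small nuclear RNA was 0.09%, 0.15% and 0.09% in controls and 0.12%, 0.14% and 0.1% with MITF overexpression, and its part in the result was not tested.

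Of the 4 tested CCA-ended rows 1, hsa-miR-7977_1ss6AG, rose, from 11, 23 and 18 reads to 68, 69 and 44, with no overlap between groups. Its level was 45.2 ± 12.6 CPM in controls and 171 ± 54.4 CPM with MITF overexpression (SD, n = 3), or 1.91 ± 0.43 (SE) as log2 fold change, and the adjusted p by edgeR was 0.0218. It passed in 3 of 6 fits with 1 library left out, and not without control replicate 2, MITF overexpression replicate 2 or MITF overexpression replicate 3, at adjusted p of 0.0642 to 0.0699 by edgeR. Without MITF overexpression replicate 1 its log2 fold change was 1.96, at an adjusted p by edgeR of 0.0399.

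The flying fox row pal-miR-9993b-3p had 9, 11 and 20 reads against 35, 38 and 22, and its groups did not overlap in CPM, at an adjusted p of 0.106 by edgeR. The row pal-miR-9993a-3p had 17, 78 and 47 reads against 66, 51 and 19, a log2 fold change of 0.05 ± 0.55 (SE) with overlapping groups. The hamster row cgr-miR-1260 had 10, 10 and 26 reads against 27, 26 and 16, with overlap. The untested row hsa-miR-4454_L-2 had 6, 5 and 11 reads against 11, 37 and 10. All 10 CCA-ended rows together were at 172, 353 and 274 CPM in controls and at 477, 832 and 329 CPM with MITF overexpression, so that the summed levels overlapped. The authors' class of tRNA reads took 2.87%, 3.42% and 4.84% of raw reads in controls and 4.71%, 4.78% and 5.56% with MITF overexpression, and its part in these rows was not tested.

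**Figure D2:**
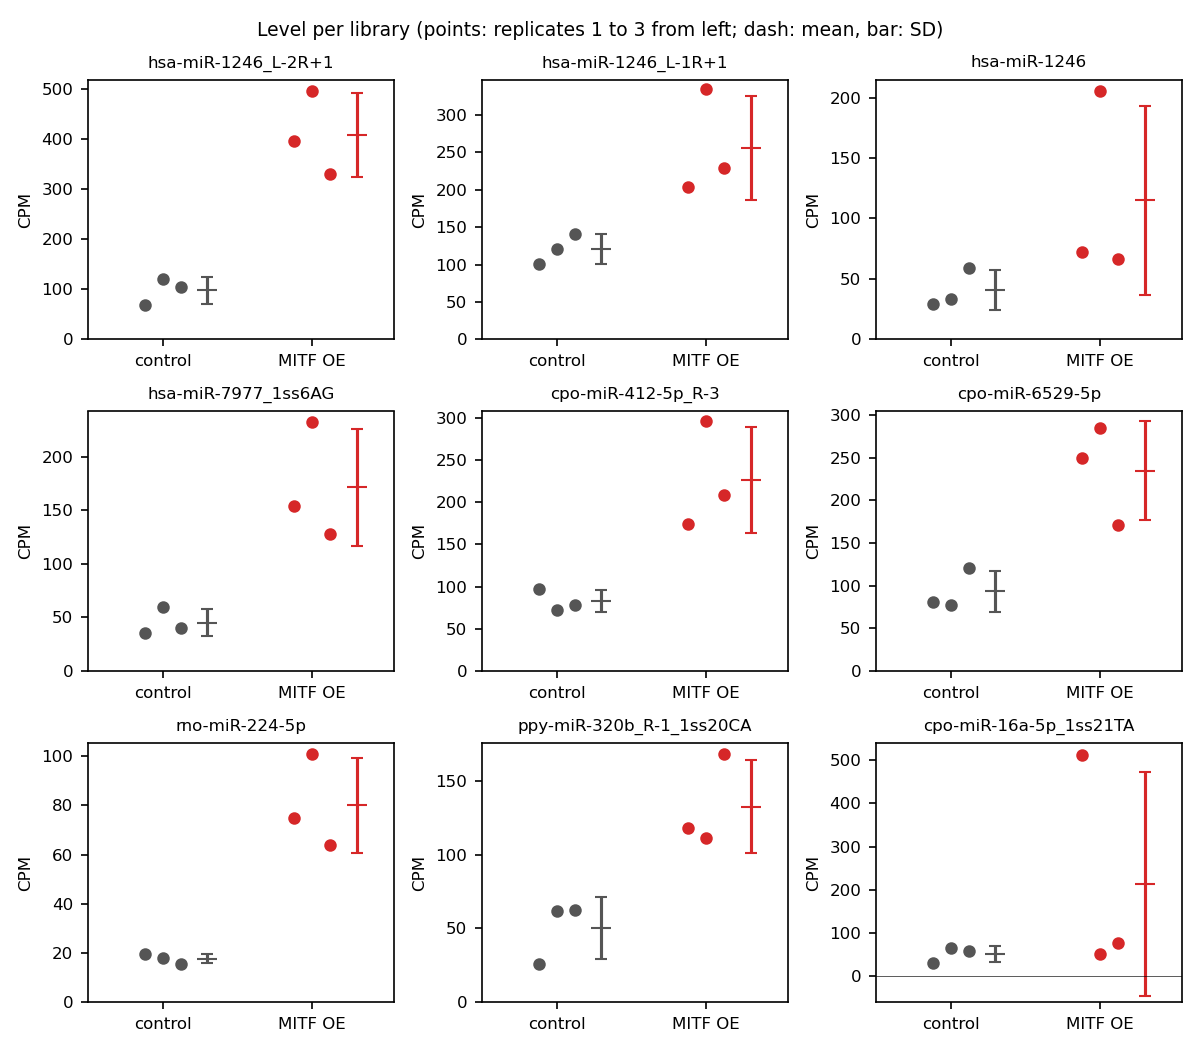
Level in CPM (y axis) in each library for 9 rows, with control libraries in grey and MITF overexpression libraries in red, in replicate order, beside the mean and SD of each group. In hsa-miR-1246_L-2R+1 all red points lie above all grey points, whereas in cpo-miR-16a-5p_1ss21TA a single red point, at 512 CPM, lies above the rest.

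Of the remaining 3 called rows, miR-412 and miR-224 were close to a mouse microRNA and miR-6529 was not. The guinea pig row cpo-miR-412-5p_R-3, whose mouse namesake lies in the imprinted Dlk1-Dio3 region (chromosome 12, 109743303 to 109743325, plus strand, GRCm38), had 30, 28 and 35 reads in controls and 77, 88 and 72 with MITF overexpression. The groups did not overlap, at 97.4, 72.5 and 78.5 CPM and at 175, 296 and 209 CPM. The log2 fold change was 1.45 ± 0.36 (SE), at an adjusted p of 0.0236 by edgeR, and the row passed in 2 of 6 fits with 1 library left out, the highest adjusted p being 0.0899. Without MITF overexpression replicate 1 its log2 fold change was 1.59, at an adjusted p by edgeR of 0.0399.

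The row cpo-miR-6529-5p had 25, 30 and 54 reads against 110, 84.5 and 59, and its log2 fold change was 1.32 ± 0.36 (SE), at an adjusted p by edgeR of 0.0338. In CPM the highest control, 121, lay below the lowest MITF overexpression library, 171. A cow-named row had the same sequence and the same reads, and the 2 rows summed gave 1.32 ± 0.31 (SE), at an adjusted p by edgeR of 0.0202. On its own it passed in 1 of 6 fits with 1 library left out, with adjusted p of up to 0.103, and its log2 fold change without MITF overexpression replicate 1 was 1.25, at an adjusted p by edgeR of 0.0805.

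The rat row rno-miR-224-5p had the fewest reads of the called rows, 6, 7 and 7 in controls and 33, 30 and 22 with MITF overexpression, and no overlap. Its level was 17.8 ± 1.92 CPM against 79.9 ± 19.1 CPM (SD, n = 3), or 2.15 ± 0.63 (SE) as log2 fold change, and the adjusted p by edgeR was 0.0430. It passed in 0 of 6 fits with 1 library left out, where its adjusted p by edgeR was 0.0683 to 0.110 and its log2 fold change reached 2.29. Without MITF overexpression replicate 1 the value was 2.17, at an adjusted p by edgeR of 0.110. The mouse miR-224 sits on chromosome X, 72261085 to 72261105 on the minus strand of GRCm38.

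The authors' deposited table gives these rows a fold change of 4.25 (miR-1246_L-2R+1), 3.86 (miR-7977), 2.79 (miR-412), 2.56 (miR-6529) and 4.58 (miR-224). The unadjusted p-values in the authors' deposited table are 0.00799, 0.0378, 0.0435, 0.0194 and 0.0199 in the same order.

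Other rows near a mouse microRNA were not called. The row pal-miR-544-5p had 4.5, 5 and 6.5 reads against 20, 10.5 and 14.5, with no overlap, at an adjusted p of 0.223 by edgeR. The orangutan row ppy-miR-320b_R-1_1ss20CA had 8, 24 and 28 reads against 52, 33 and 58 and a log2 fold change of 1.38 ± 0.47 (SE), without overlap, at an adjusted p of 0.0705 by edgeR. The mouse row miR-320-3p, far more abundant at 9875 CPM in controls and 10173 CPM with MITF overexpression, had a log2 fold change of 0.04 and was not called. The difference between the 2 rows was not tested. Rows named for miR-320b, c and d numbered 7, with a sum of 34.1, 62.1 and 128 CPM in controls and 190, 256 and 258 CPM with MITF overexpression, without overlap. Among them hsa-miR-320d had 2.5, 0 and 10.5 reads against 19, 8.5 and 10.5, a log2 fold change of 1.71 ± 1.20 (SE).

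The armadillo row dno-miR-450b-5p_R-2 had 10.5, 19 and 13.5 reads in controls against 20, 13.5 and 27, a log2 fold change of 0.59 ± 0.62 (SE). The mouse rows for miR-450b-5p and miR-450a-5p had the other sign, at -0.83 and -0.56, and were not called. That difference was not tested. The chimpanzee row ptr-miR-877_R+3 had 17, 13 and 18 reads against 22, 8 and 15, a log2 fold change of -0.09 ± 0.67 (SE). The macaque row mml-miR-7194-3p_L-2_1ss16CT, which had none of the sequence features, had 7, 13 and 20 reads against 31, 11 and 19, a log2 fold change of 0.68 ± 0.66 (SE). In the armadillo, chimpanzee and macaque rows the groups overlapped and the test was not passed.

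The guinea pig row cpo-miR-16a-5p_1ss21TA rested on 1 library, with 9.5, 25.5 and 26.5 reads in controls and 225.5, 15.5 and 26.5 with MITF overexpression. The 225.5 reads were in MITF overexpression replicate 1, and the groups overlapped. Its log2 fold change was 2.02 ± 0.78 (SE) with that library and 0.26 without it. The mouse row miR-16-5p stood at 3230 CPM in controls and 2119 CPM with MITF overexpression, a log2 fold change of -0.61 that was not called.

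The most abundant row was hsa-miR-378c_R-2_2ss21AG22GC, with 507, 549 and 536 reads in controls and 450, 475 and 395 with MITF overexpression. Its log2 fold change was -0.18 ± 0.24 (SE), and the groups overlapped. The closest mouse row, for miR-378a-3p, had a log2 fold change of -0.44 and was not called either. Its mouse namesake, the row for miR-378c, was at 0.07 and was also not called. The pig row ssc-miR-378_R+2 had 17, 6 and 32 reads against 7, 11 and 0, with overlap and a log2 fold change of -1.44 ± 1.15 (SE). The pig row ssc-mir-1285-p5, which matches 7SL RNA (Rn7s1 and Rn7s2, on chromosome 12), was second in reads, with 129, 202 and 202 against 199, 264 and 137 and a log2 fold change of 0.31 ± 0.32 (SE).

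Of the 4 rows within mt-Rnr2, 3 were tested and 0 were called, and the log2 fold changes of these 3 were below 0. The row hsa-mir-4485-p5_1ss18CT had 0, 166 and 137 reads in controls and 56, 21 and 38 with MITF overexpression, so that controls lay on both sides of the other group. Its log2 fold change was -1.26 ± 0.97 (SE), at an adjusted p by edgeR of 0.412. Of the 6 fits with 1 library left out it passed in 1, without control replicate 1, which had no reads, and there the value was -1.85, at an adjusted p by edgeR of 0.0306. Over the 6 fits it ran from -1.85 to -0.59, with adjusted p of up to 0.778 by edgeR. The row cgr-mir-1973-p3_1ss19AT had 14, 96 and 45 reads against 35, 7 and 6 and a log2 fold change of -1.68 ± 0.73 (SE), at an adjusted p of 0.134 by edgeR. It too passed in 1 of 6 such fits, without MITF overexpression replicate 1, at -2.70 and an adjusted p by edgeR of 0.0493, and the 6 ran from -2.70 to -0.86, with adjusted p of up to 0.557 by edgeR. The row hsa-mir-4485-p3_1ss15CT had 0, 120.5 and 100.5 reads against 48, 19 and 67.5, with overlap. Its log2 fold change was -0.54 ± 0.96 (SE), at an adjusted p of 0.758 by edgeR, and ran from -1.13 to 0.14 with 1 library left out. The untested row hsa-mir-1973-p3 had 0, 19.5 and 17.5 reads against 10, 0 and 8.5. In all 4 rows the groups overlapped. The 4 rows summed to 45.4, 1040 and 673 CPM in controls and to 338, 158 and 348 CPM with MITF overexpression. The class of ribosomal RNA took 6.65%, 7.55% and 7.4% of raw reads in controls and 6.5%, 5.68% and 5.91% with MITF overexpression, and its part in these rows was not tested.

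The 17 rows with at least 80% G and C included 5 that were tested and 0 that were called. By edgeR the lowest adjusted p among them was 0.302, and their log2 fold changes ran from -0.41 to 1.15. The rows hsa-mir-636-p3_1ss19CG and hsa-mir-636-p5_1ss19CG had one sequence and the same reads, 10, 45.5 and 36 against 22.5, 29 and 10.5, with overlap. The row hsa-miR-1469_L-2_1ss10GC had 5, 16 and 9 reads against 21, 26 and 14, and its log2 fold change was 1.15 ± 0.73 (SE). The row hsa-miR-1469_L-4_1ss10GC had 0, 14.5 and 24 reads against 6, 27 and 0, and hsa-miR-1268a_1ss10TG had 0, 26 and 14 against 19, 13 and 5. The groups overlapped in CPM in all 5 tested rows.

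The untested rows with reads in at least 4 libraries had no more than 41 reads in any library. The hamster row cgr-miR-215-5p_R-2 had 0, 10 and 5 reads against 41, 14 and 7. The row hsa-miR-541-5p_R-6 had 0, 0 and 11 reads against 9, 28 and 20. Both were within 2 mismatches of a mouse microRNA, as were rno-miR-374-3p_2ss8CG19TC, with 8, 7 and 0 reads against 5, 8 and 0, and oga-miR-28b_R+1, with 5, 6 and 0 against 11, 12 and 0. The rows matching tRNA genes were efu-mir-9277-p3_1ss10CT, with 5, 5 and 0 reads against 7, 8 and 12, and efu-mir-9277-p5, with 0, 5 and 12 against 0, 10 and 8. Among GC-rich rows hsa-miR-4508_L+2 had 15, 21 and 9 reads against 5, 0 and 0. The rows ssc-mir-4332-p5_1ss10CT and ssc-mir-4332-p3_1ss10CT had the same reads, 2.5, 8.5 and 13 against 0, 0 and 3. These 3 GC-rich rows had more reads in controls over the group. With none of the sequence features, mdo-mir-7317-p5_1ss1GC and mdo-mir-7317-p3_1ss1GC had 0, 3.5 and 3.5 reads each against 21, 4 and 15.5. The row hsa-miR-4443_R+1 had 17, 0 and 12 reads against 27, 0 and 5, and hsa-mir-8065-p3_1ss13TA had 0, 15 and 20 against 11, 6 and 0.

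**Figure D3:**
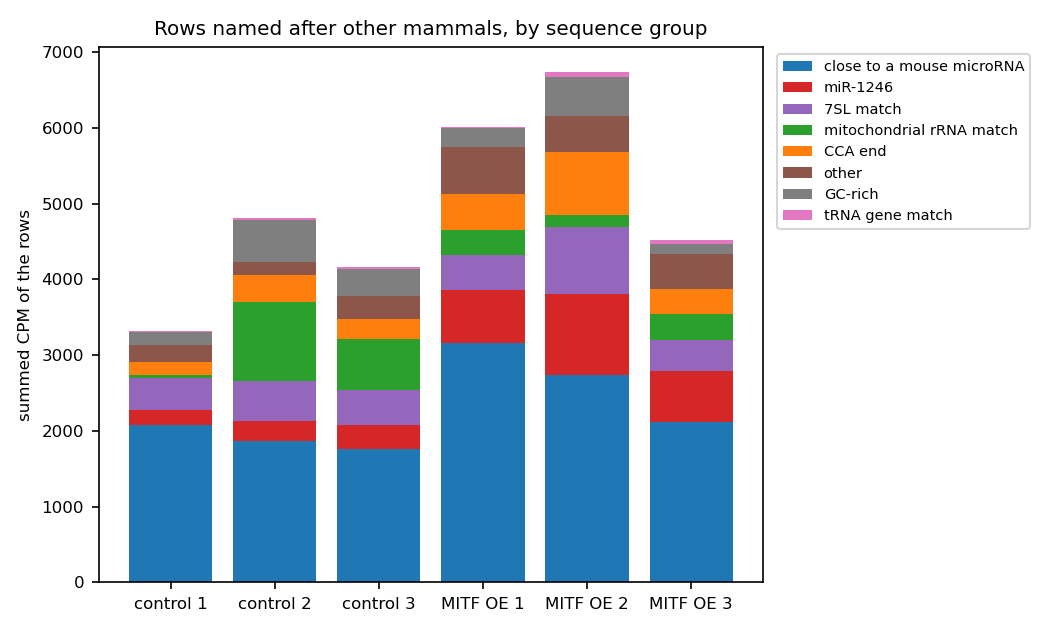
Summed CPM (y axis) of the rows in each library, stacked by sequence group. The miR-1246 part is at 198 to 326 CPM in the 3 controls and at 673 to 1061 CPM in the 3 MITF overexpression libraries, while the mitochondrial part runs from 45.4 to 1040 CPM within the controls.

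Of the 71 rows without a tag 15 were tested, 4 rose, 0 fell and the median log2 fold change was 1.32. Of the 53 with a tag 13 were tested, 1 rose, 0 fell and the median was 0.02. Over all tested rows, 9.98% were called higher and 5.22% lower, and the median was 0.08. The rows without a tag summed to 1339, 1590 and 1661 CPM in controls and to 3039, 3733 and 2238 CPM with MITF overexpression, without overlap and with a log2 ratio of 0.97. The rows with a tag summed to 1982, 3214 and 2507 CPM against 2970, 2999 and 2287 CPM, which overlapped, with a log2 ratio of 0.10. Without MITF overexpression replicate 1 these ratios were 0.94 and 0.02. The difference between rows with and without a tag was not tested. Cow-named rows had the same order, with 8 of 22 tested rows without a tag higher and a median of 1.26, and 2 of 10 tested rows with a tag lower and a median of -0.84. Mouse-named rows had the other order, with medians of -0.11 without and 0.42 with a tag. The cow-named rows were not a separate set. Among those without a tag, bta-miR-6529a had the sequence and reads of cpo-miR-6529-5p, and bta-miR-450b_R-1 those of dno-miR-450b-5p_R-2. The called miR-6529 sequence is thus counted under both names.

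**Figure D4:**
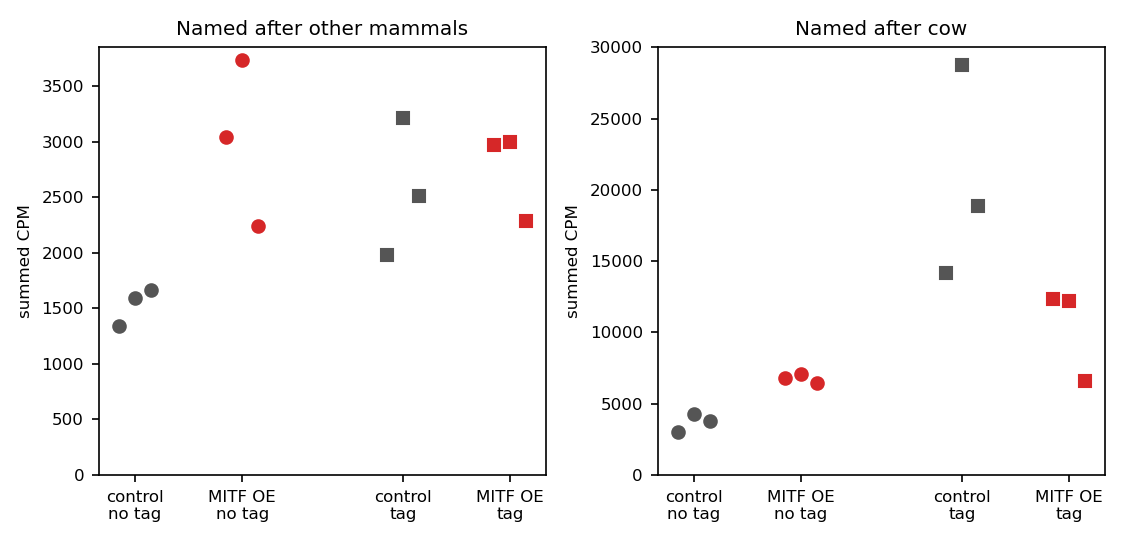
Summed CPM (y axis) of rows without (circles) and with (squares) a substitution tag in each library, for rows named after other mammals and after cow, with controls in grey and MITF overexpression in red. On the left, the grey circles, at 1339 to 1661 CPM, lie below the red ones, at 2238 to 3733 CPM, while the squares overlap.

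Together the 124 rows were at 4098 ± 745 CPM in controls and 5755 ± 1125 CPM with MITF overexpression (SD, n = 3), with overlapping libraries, and without MITF overexpression replicate 1 the log2 ratio of the groups was 0.44. By species, the 43 human-named rows stood at 2630 ± 483 CPM against 3047 ± 730 CPM, also with overlap, with 2 of 13 tested rows higher. The 9 guinea pig rows stood at 209, 216 and 286 CPM against 1009, 633 and 495 CPM, without overlap, with 2 of 3 tested rows higher. These 2 are the miR-412 and miR-6529 rows described above. Of the 1009 CPM, in MITF overexpression replicate 1, 512 CPM came from cpo-miR-16a-5p_1ss21TA. Over all tested rows, 9.98% were called higher. The 12 opossum rows, 0 of them tested, stood at 24.3, 31.1 and 15.7 CPM against 706, 26.9 and 97.2 CPM, with the high value in MITF overexpression replicate 1.

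Many rows were seen in 1 library, 55 of 124, and 23 had reads in all 6. Over all rows it was much the same, with 708 of 1560 in 1 library and 372 in all 6. The libraries had reads in 40, 53 and 56 of the 124 rows in controls and in 73, 61 and 61 with MITF overexpression. Of all 1560 rows, 256 had reads in MITF overexpression replicate 1 alone, the most of any library. Of the 124, that library alone held 20 rows, with 384.5 reads, and 7 of these had an opossum name. Among them mdo-miR-139-5p_R+5 had 94 reads, mdo-miR-215_R+1_1ss20AC 84, chi-miR-16a-5p_R+1 48 and mdo-miR-22-3p_1ss11TC 36, all with 0 in the other 5 libraries. Of these, the miR-16a and miR-22 rows were chosen after their values were seen. Each of these 4 was within 2 mismatches of a mouse microRNA. The next libraries had 13 such rows with 91 reads and 10 with 56.5 reads, both with MITF overexpression, and the controls had 3 to 5 such rows. Without the 20 rows, an alternative chosen after seeing the data, the summed level of the rest was 5464 ± 1139 CPM with MITF overexpression (SD, n = 3).

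**Figure D5:**
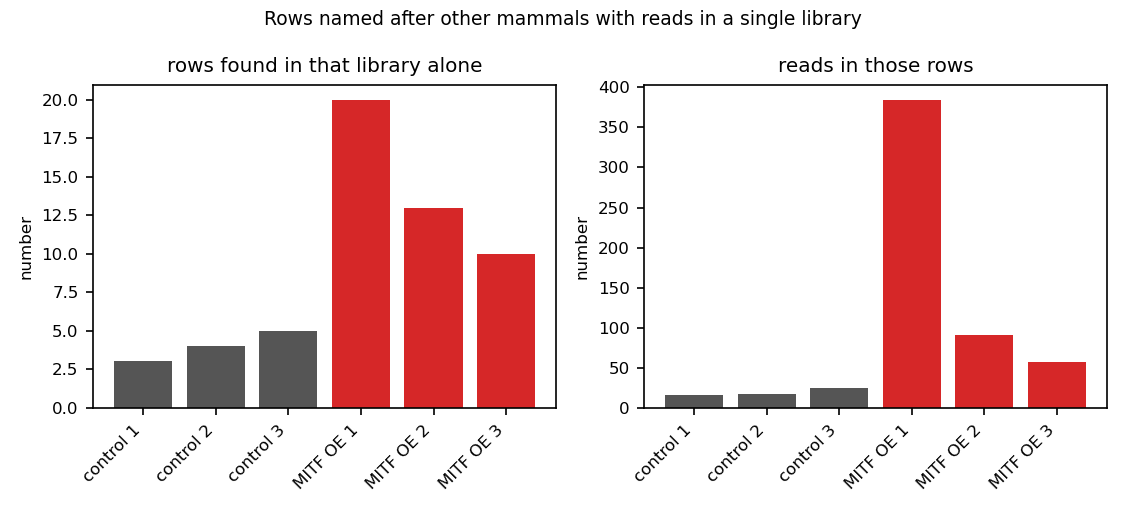
Number of rows with reads in one library alone (left) and the reads they hold (right), by library, with controls in grey and MITF overexpression in red. MITF overexpression replicate 1 holds 20 such rows with 384.5 reads, and the controls hold 3 to 5 rows each. Over all 1560 rows, not drawn, the counts were 18, 40 and 63 in controls and 256, 203 and 128 with MITF overexpression.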

How the data were processed

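The labels' protocols name a TruSeq kit for small RNA, and the submitters' processing notes name the build mm9. For aligner and counter, none is named (not given in the sources used here). A table deposited by the authors gives estimated counts of reads per row and library, which can be fractional. Per the file headers it also holds normalized values (a signal: each library's estimated counts over a constant), group means, their ratio or fold change, the log2 of that, and a p-value without adjustment. The other deposited table gives for each class of reads a count and a percent of raw reads.

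The estimated counts were rounded and tested over the whole table with edgeR 4.0.16 in R 4.3.3 (TMM scaling, filterByExpr at its minimum count of 10, quasi-likelihood test, group as the only term, all 6 libraries), adjusted by Benjamini-Hochberg with a threshold of 0.05. The fit was tested on simulated data. CPM are reads over the TMM-scaled library total, times 1000000, and a positive log2 fold change means higher with MITF overexpression. Alternatives were DESeq2 1.42.0 and its size factors, total-count scaling, other filters, scaling without the most abundant row, summing rows of one sequence, a replicate block, leaving out each library, and sums without some rows. The labels do not say that the replicate numbers mark pairs, so the main fit did not use them as pairs. Same-numbered libraries had deviations that correlated at -0.05, 0.04 and -0.01, and values from so few libraries cannot decide whether they were paired. 4 empty lines were not used.

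Sequence groups were set in the order miR-1246, mt-Rnr2, 7SL, tRNA gene, CCA end, at least 80% G and C, close to a mouse microRNA, and other. Close meant at most 2 mismatches to a mature mouse microRNA or to a mouse microRNA gene transcript. RefSeq and GENCODE M21 tables of GRCm38 served for matching. The rule for naming rows took all tested ones, all of miR-1246 and miR-7977, and untested ones with reads in at least 4 libraries or among the 5 with most reads, and mouse counterparts are given for some. The rows and lists were chosen with earlier results of these data known.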

Additional observations from a re-analysis of the deposited data

Results flagged for a closer look

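The human-named row hsa-miR-320c_L-1R+1_1ss20TA, which was not tested and was chosen after its values were seen, had 10.5 reads over the 3 MITF overexpression libraries and 0 in every control library. The opposite pattern was also present. The row hsa-miR-1268a_R+1_1ss10TG, chosen and left untested in the same way, had 7.5, 7.5 and 6 reads in controls and 0 in every MITF overexpression library. The 20 rows with reads in MITF overexpression replicate 1 alone, also outside the test, held 384.5 reads there. That they had none in the other libraries follows from how they were chosen. Over all 1560 rows, 256 had reads in that library alone.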

How the results depend on the processing

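The 5 called rows named after other mammals became 2 by DESeq2 (miR-1246_L-2R+1 and miR-7977) and 0 to 4 when 1 library was left out. The count was 0 without MITF overexpression replicate 3, where 9 rows of this kind and 135 of all rows had p under 0.05 by edgeR before adjustment. It was 1 without control replicate 2 or MITF overexpression replicate 2. Over all rows, 67 calls became 0 to 56 with 1 library left out, at 0, 11 and 14 without these same libraries. Under the other alternatives without a block there were 4 to 6 calls among these rows and 68 to 84 in all. The 4 came from summing rows of one sequence. There the miR-6529 sequence was still called, at an adjusted p by edgeR of 0.0202, but counted under its cow name. With no filter the 6 were miR-1246_L-2R+1, miR-7977, cpo-miR-16a-5p_1ss21TA and 3 rows found in MITF overexpression replicate 1 alone. With the replicate block there were 0 calls among these rows and 2 in all. The labels do not say whether the replicate numbers mark pairs. The calls of all rows split into 61 higher and 16 lower with total-count scaling, which moved the median log2 fold change from 0.08 to 0.23, and into 40 and 30 without the most abundant row, against 44 and 23.

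Small log2 fold changes turned sign. That of hsa-miR-1268a_1ss10TG was 0.02 and became -0.090 without the most abundant row, -0.040 with no filter and -0.0036 with a minimum of 10 reads in 3 libraries. That of pal-miR-9993a-3p became -0.047 without the most abundant row and -0.020 with no filter, ptr-miR-877_R+3 became 0.070 with total-count scaling, and hsa-mir-4485-p3_1ss15CT became 0.14 with the replicate block. With 1 library left out the ranges were -0.58 to 1.04 for hsa-miR-1268a_1ss10TG, -2.06 to 0.92 for hsa-miR-1469_L-4_1ss10GC, -1.13 to 0.14 for hsa-mir-4485-p3_1ss15CT, -0.93 to 0.044 for hsa-mir-636-p3_1ss19CG, -0.93 to 0.044 for hsa-mir-636-p5_1ss19CG, -0.33 to 0.63 for pal-miR-9993a-3p, -0.30 to 0.17 for ptr-miR-877_R+3 and -0.079 to 0.53 for ssc-mir-1285-p5. The cause was not tested. Rows with few reads limit all of this, since 0 reads allow up to 3.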
